A study of Mus musculus with 2 samples.

Results

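The genes described here are 9 of the 32285 genes in the count tables, taken by symbol: the 4 inhibitor of DNA binding genes Id1, Id2, Id3 and Id4, the 3 bone morphogenetic protein (BMP) genes Bmp2, Bmp4 and Bmp7, and the 2 inhibitory SMAD genes Smad6 and Smad7. All 9 were found in the tables of both libraries. They were selected on their measured levels and differences between the libraries in these same data, so the values below are a description and no test was run on them. The measurements are single-cell RNA-seq counts from mouse eye cups at E17.5, late in gestation, with 1 library from Myrf humWT/humWT embryos and 1 from Myrf humdG/humdG embryos, and 3 eye cups pooled in each by the labels, whereas the study's methods count animals and eyes differently. Both alleles carry the human last exon of MYRF in place of the mouse exon, in every cell of the embryo, and the humdG allele adds the C-terminal frameshift variant. Lens and optic nerve were removed; the study's methods leave the cornea in place, whereas the labels say that it was taken off. With 1 library for each genotype, genotype, pool, dissection and library preparation cannot be told apart, and each interval given below covers counting error only.

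MYRF is a membrane-bound transcription factor of the retinal pigment epithelium (RPE), the pigmented layer behind the retina. BMP ligands are secreted, bind receptor kinases and drive phosphorylation of SMAD1 and SMAD5, which enter the nucleus with SMAD4 and switch on target genes. The ID genes are among the best known of those targets, and their short proteins bind E proteins such as TCF4 and keep them off DNA. Smad6 and Smad7 are also targets, and their proteins feed back to block the receptors, while Noggin and related secreted proteins hold the ligands away from the receptors. BMP signalling helps to set up the RPE and the dorsal side of the eye.

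Counts are unique molecular identifiers (UMIs), each standing for a captured transcript. Cells were grouped by clustering both libraries together, and a cluster is called by a cell type, as "RPE-like", only where its raised genes matched a list of markers for that type. The 24 clusters gave 14 classes, of which 13 held at least 50 cells in each library and were compared, together with 6 clusters that stayed without a name and are called by number and leading genes (42.1% of humWT and 63.0% of humdG cells). Muscle-like and cartilage-like cells were present, and a surface epithelium-like class of 106 and 109 cells had Krt12, a keratin of the cornea, among its leading genes. The RPE-like class held 574 humWT and 404 humdG cells, of 16128 and 18140 kept, and 9 of its 12 markers were raised at least 2-fold over all other cells in each library. A level is given in CPM, the UMIs of the gene per 1000000 UMIs of the class in that library, with the exact Poisson 95% interval, and a difference as the log2 ratio of humdG over humWT, with the exact conditional binomial 95% interval. The RPE-like cells were not deep, with medians of 3831.5 and 2562.5 UMIs per cell. The libraries shared 86 cell barcodes among the kept cells, 6 of them in humWT and 1 in humdG RPE-like cells. Across classes, the median UMIs per cell were lower in the humdG library in 9 of the 13 compared classes. Myrf itself gave 1229 UMIs in humWT and 487 in humdG RPE-like cells, at 279.7 and 197 CPM, a log2 ratio of -0.51 (95% interval -0.66 to -0.35).

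In the mouse genome (GRCm38, GENCODE M21), the Id genes lie on separate chromosomes: Id1 on chromosome 2 from 152736251 to 152737410 on the plus strand, Id3 on chromosome 4 from 136143497 to 136145755 on the plus strand, Id2 on chromosome 12 from 25093799 to 25097140 on the minus strand, and Id4 on chromosome 13 from 48261228 to 48266026 on the plus strand. Bmp2 and Bmp7 share chromosome 2 with Id1, Bmp4 lies on chromosome 14 and Smad6 on chromosome 9. Of the 9 genes, 5 had an entry in the RefSeq promoter table (GRCm38.p6), which spans 250 bases before to 50 bases after an annotated start, and Id1, Bmp2, Bmp7 and Smad7 had none. That start is not the end of the GENCODE span given above. The Id3 and Id2 windows lie inside their spans, and the Id4 window lies before its span. Distances below are counted from the start used for the window. The promoters of Id3, Id2 and Id4 are printed because they are the ID genes with an entry and are known BMP targets. Id3 and Id2 were higher in humdG RPE-like cells, and Id4 there was no higher than free RNA on a total without globin (below). Capitals mark 3 short motifs searched on both strands: GGCGCC and GGAGCC, GC-rich elements that SMAD1 and SMAD5 are known to bind, and CAGAC, the element that SMAD3 and SMAD4 are known to bind. No match overlapped another.
Id3, chr4:136143572-136143871, plus strand: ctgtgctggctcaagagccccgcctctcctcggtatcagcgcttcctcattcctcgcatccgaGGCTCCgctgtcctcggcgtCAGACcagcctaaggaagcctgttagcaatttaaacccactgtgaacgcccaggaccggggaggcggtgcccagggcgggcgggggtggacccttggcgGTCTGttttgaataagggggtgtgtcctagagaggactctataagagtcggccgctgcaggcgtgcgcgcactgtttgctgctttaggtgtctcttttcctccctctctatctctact
Id2, chr12:25096043-25096342, minus strand: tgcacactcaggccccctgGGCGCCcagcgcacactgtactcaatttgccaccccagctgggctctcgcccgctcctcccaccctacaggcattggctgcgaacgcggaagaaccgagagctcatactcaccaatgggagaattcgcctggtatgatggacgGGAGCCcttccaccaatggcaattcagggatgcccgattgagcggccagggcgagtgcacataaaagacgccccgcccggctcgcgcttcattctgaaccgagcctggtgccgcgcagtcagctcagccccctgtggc
Id4, chr13:48260866-48261165, plus strand: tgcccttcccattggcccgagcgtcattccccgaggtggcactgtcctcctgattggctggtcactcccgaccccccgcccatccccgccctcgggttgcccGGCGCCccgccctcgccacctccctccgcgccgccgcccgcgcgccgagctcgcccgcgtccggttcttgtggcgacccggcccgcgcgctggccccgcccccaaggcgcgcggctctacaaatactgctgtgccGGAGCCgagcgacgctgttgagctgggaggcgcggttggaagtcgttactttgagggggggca
The Id2 and Id4 promoters each held 1 GGCGCC, at 231 and 148 bases before the start, and 11.9% of all 32851 promoters of this length held it. GGAGCC occurred once in each of the Id3, Id2 and Id4 promoters, at 187, 88 and 13 bases before the start, and CAGAC occurred in the Id3 promoter alone of the 5, with 2 matches. The Bmp4 promoter held 1 GGAGCC and the Smad6 promoter 2, so this letter string did not separate the genes that were higher from those that were not. Over all promoters, 30.8% held GGAGCC and 49.6% held CAGAC, and a match here describes letters and not a bound site.

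Id1, Id3 and Id2 were higher in the humdG library in RPE-like cells. The study already reports Id1 and Id3 as raised in humdG RPE and in its conditional knockout, and places them under TGF-β signalling. Id1 rested on 191 UMIs in humWT and 441 in humdG, which put it at 43.5 CPM (95% interval 37.5 to 50.1) and 178 (162 to 196). The log2 ratio was 2.04 (1.79 to 2.29), a 4.10-fold difference. The humWT level was no higher than that of red blood cell-like cells when globin was left out of the total (below). Id3 gave 734 and 1376 UMIs, at 167 (155 to 179.6) and 557 (527 to 587) CPM, with a log2 ratio of 1.74 (1.61 to 1.87), a 3.33-fold difference. Both genes code for short proteins that bind E proteins, and in both the interval of humdG lay wholly above that of humWT. Id2 gave 768 and 911 UMIs, at 175 (163 to 188) and 368 (345 to 393) CPM, with a log2 ratio of 1.08 (0.94 to 1.22). Id4 was close to undetected, with 19 and 25 UMIs at 4.32 and 10.1 CPM, and its log2 ratio of 1.23 carried an interval of 0.31 to 2.17. Both levels were no higher than free RNA on a total without globin (below). Among the 8240 genes with at least 100 UMIs in these cells, 10 had a higher ratio than Id1, 25 a higher ratio than Id3 and 67 a higher ratio than Id2. These ranks describe genes that were picked for their differences.

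The BMP ligands made by the same cells did not follow the ID genes. Bmp4, which sets dorsal identity in the eye, gave 1319 and 817 UMIs, at 300.2 (284 to 317) and 330.4 (308 to 354) CPM, a log2 ratio of 0.14 (0.01 to 0.27). A lone humdG cell held 122 of the 817 UMIs, and without the leading cell of each library the ratio was -0.02. Bmp7, a ligand needed for early eye growth, gave 697 and 334 UMIs at 159 (147 to 171) and 135 (121 to 150.4) CPM, a log2 ratio of -0.23 (-0.42 to -0.04). Bmp2 gave 131 and 53 UMIs at 29.8 (24.9 to 35.4) and 21.4 (16.1 to 28.0) CPM, a log2 ratio of -0.48 (-0.96 to -0.0053). All 3 ratios were small beside those of Id1, Id3 and Id2, whose intervals lay wholly above theirs.

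The inhibitory SMADs, which are BMP targets like the ID genes, were also close to level. Smad6 gave 123 and 81 UMIs at 28.0 (23.3 to 33.4) and 32.8 (26.0 to 40.7) CPM, a log2 ratio of 0.23 (-0.20 to 0.64). Smad7 gave 145 and 93 UMIs at 33.0 (27.8 to 38.8) and 37.6 (30.4 to 46.1) CPM, a log2 ratio of 0.19 (-0.20 to 0.57). The upper bounds of both lay below the lower bounds of Id1, Id3 and Id2. These intervals reach up to a 1.56-fold difference in Smad6 and a 1.49-fold difference in Smad7. Under the alternatives tried (below), the Smad6 ratio ran from -0.37 to 1.33 and the Smad7 ratio from -0.49 to 0.68. Without globin in the total, Smad6 in humdG was at 33.0 CPM in RPE-like against 8.47 in red blood cell-like cells. Smad7 there was at 37.9 against 16.9 (below).

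A gene was called higher or lower at 1.5-fold, counting genes whose UMIs in the libraries summed to 20 or more. Id1, Id2, Id3 and Id4 passed 1.5-fold upward and none of the 9 was lower in RPE-like cells. Id4 was there no higher than free RNA on a total without globin (below). Of the 12659 genes so counted, 7.16% were higher and 15.4% lower. Since the 9 were selected on this difference, the count is given beside the background and nothing is read from it. The median log2 ratio of the counted genes was -0.06.

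**Figure D1:**
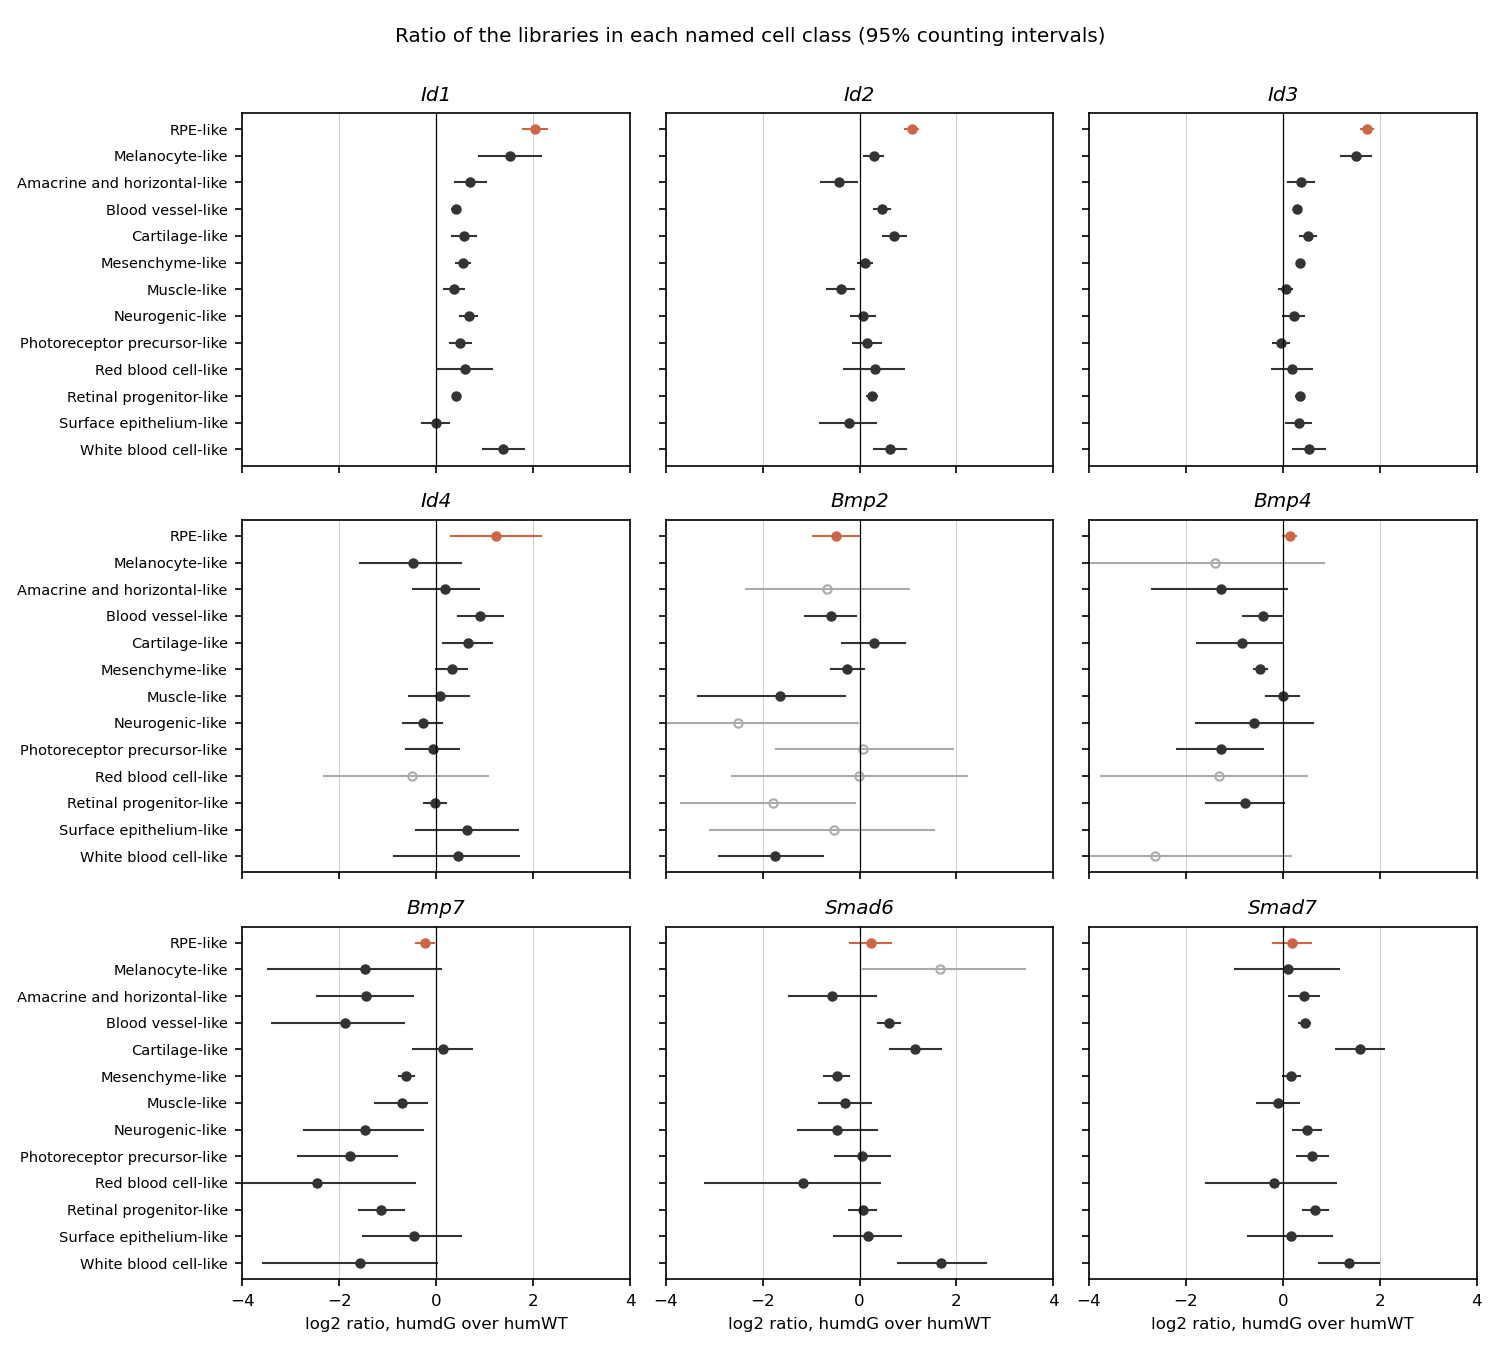
Log2 ratio of humdG over humWT for each of the 9 genes (panels) in the 13 named cell classes (rows), with 95% counting intervals clipped at -4 and 4; open grey points rest on fewer than 20 UMIs and classes with no UMI in a library have no point. RPE-like cells (orange) stand at 2.04 for Id1, 1.74 for Id3 and 1.08 for Id2, while the 3 ligands and 2 inhibitory SMADs lie between -0.48 and 0.23 there.

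The same counts were also viewed cell by cell, which is not separate evidence. As a mean over cells the Id1, Id3 and Id2 ratios were smaller than from summed UMIs (below). A UMI of Id1 was found in 22.3% of humWT (128 of 574, exact binomial 95% interval 19.0 to 25.9) and 38.9% of humdG RPE-like cells (157 of 404, 34.1 to 43.8), although the humdG cells were shallower. With every cell thinned to 1000 UMIs, for which no humWT and 2 humdG cells were too shallow, the shares were 4.88% (3.27 to 6.97) and 12.7% (9.59 to 16.3). For Id3 the thinned shares were 13.6% (10.9 to 16.7) and 24.9% (20.7 to 29.4), from 42.9% and 53.7% before thinning. For Id2 they were 12.2% (9.63 to 15.2) and 18.7% (14.97 to 22.8), from 42.0% and 44.6%. Bmp4 gave 11.1% (8.69 to 14.0) and 12.4% (9.37 to 16.1) after thinning, from 36.4% and 33.4%, and its intervals overlapped over most of their length. The intervals of Id1 and Id3 did not overlap between libraries, and those of Id2 overlapped by a narrow margin. Cells of a library are not replicates, so these intervals do not cover variation between embryos or libraries. Red blood cell-like cells had thinned shares of 2.55% and 4.64% for Id1, 8.72% and 9.28% for Id3, 3.62% and 4.64% for Id2, and 1.06% and 0.844% for Bmp4, with 6 cells left out of each library.

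Among deeper cells the libraries could be compared at similar depth. There were 109 humWT and 68 humdG RPE-like cells with at least 10000 UMIs, with medians of 19310 and 18601 UMIs. Of these, 44.0% of humWT (34.5 to 53.9) and 80.9% of humdG cells (69.5 to 89.4) held a UMI of Id1. The median Id3 level was 1.26 UMIs per 10000 in humWT and 5.38 in humdG cells, and the 90th percentile was 4.50 and 17.9. For Id2 the medians were 1.56 and 3.96 per 10000. For Bmp4 the medians were 3.497 and 2.59, and for Bmp7 1.76 and 1.23, so that neither ligand was higher at the median of the deep humdG cells. Over all RPE-like cells, the 10 cells with the most UMIs of a gene held 22.5% of the Id1 UMIs in humWT and 36.1% in humdG, and 22.1% and 35.7% of the Id3 UMIs. The ligands and inhibitory SMADs were more concentrated in humdG. The shares were 27.4% and 52.0% for Bmp4, 24.8% and 39.2% for Bmp7 and 37.4% and 50.9% for Bmp2. They were 24.4% and 45.7% for Smad6 and 21.4% and 48.4% for Smad7. Without the leading cell of each library the ratios were 2.01 for Id1 and 1.71 for Id3.

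**Figure D2:**
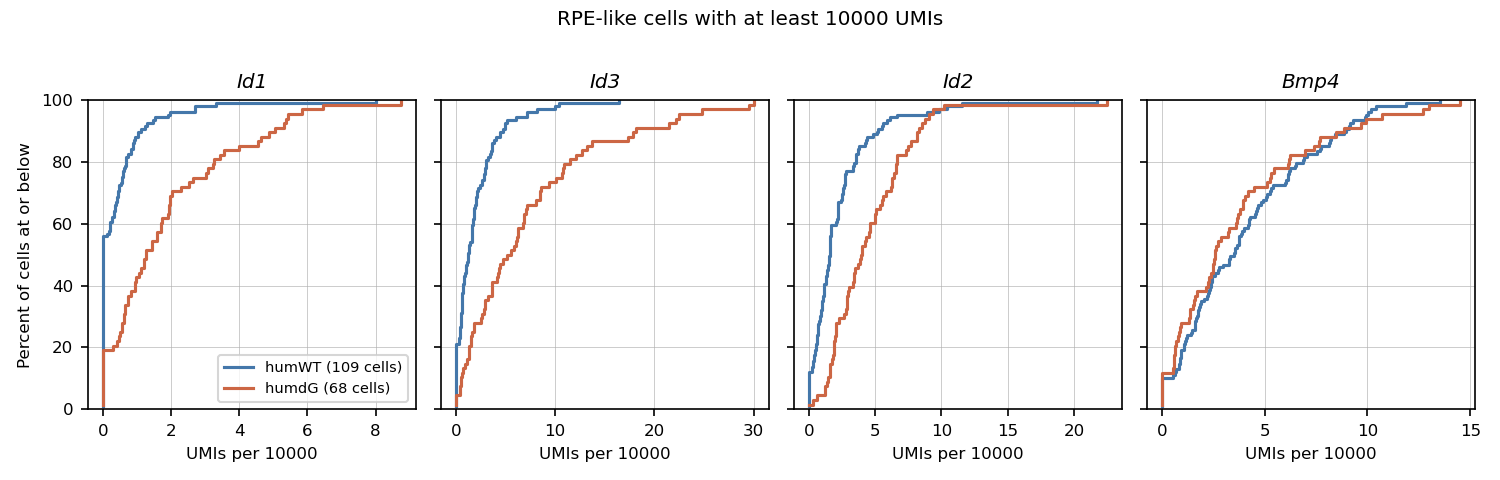
Cumulative share of RPE-like cells with at least 10000 UMIs (percent of cells at or below, vertical axis) by level of Id1, Id3, Id2 and Bmp4 (UMIs per 10000 UMIs of the cell, horizontal axis) in 109 humWT and 68 humdG cells. The humdG curves of Id1, Id3 and Id2 run to the right of humWT, with Id3 medians of 1.26 and 5.38, while the Bmp4 curves run close together.

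The RPE-like class joined 2 clusters. The larger raised 9 RPE and 9 melanocyte markers, from lists that share genes. Its name rests on its 10 leading genes, with 3 RPE markers and 1 melanocyte marker among them. That rule was set after the clusters were seen. The smaller raised 8 RPE and 7 melanocyte markers, with no marker of either list among its 10 leading genes. The larger, led by Ttr, held 500 humWT and 389 humdG cells and gave log2 ratios of 1.95 (1.69 to 2.21) for Id1, 1.65 (1.52 to 1.78) for Id3 and 0.98 (0.83 to 1.12) for Id2. The smaller, led by Ankfn1, held 74 and 15 cells, with 11 and 14 UMIs of Id1 and 28 and 16 of Id3, and gave 2.95 (1.70 to 4.23) and 1.79 (0.81 to 2.73). Its Id2 level was low in both libraries, at 31.8 and 36.2 CPM against 193 and 379.9 in the larger cluster, and its Id2 ratio was 0.19 (-2.23 to 1.99) from 16 and 3 UMIs. Id1, Bmp4 and Smad7 were among the 2000 genes used for clustering, and the other 6 were not.

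Droplet libraries hold free RNA, and its size was read in red blood cell-like cells, where none of these genes should be made. In those cells Id1 stood at 30.3 and 45.7 CPM in humWT and humdG, Id3 at 65.6 and 75.0 and Id2 at 28.0 and 34.8, and a UMI of Id1 was found in 12.2% and 18.9% of cells, with medians of 4158.5 and 4200.0 UMIs. Globin took 47.8% and 56.8% of their UMIs. On a total without globin, Id1 was at 58.0 and 106 CPM in red blood cell-like and at 43.7 and 179.7 in RPE-like cells. On that total the humWT level of Id1 in RPE-like cells was no higher than the level in cells that should lack it, and the humdG level was above it. On the plain total the humWT level was 43.5 CPM (37.5 to 50.1) against 30.3 (23.4 to 38.5), with overlapping intervals. Which total better gives the free RNA in an RPE-like cell was not tested. Without globin, Id3 was at 126 and 174 in red blood cell-like against 168 and 561 in RPE-like cells, and Id2 at 53.6 and 80.4 against 176 and 371, above the background in both libraries. Id4 in RPE-like cells, at 4.35 and 10.2 without globin, was at or below the 12.3 and 10.6 of red blood cell-like cells. On the plain total Id4 was at 4.32 and 10.1 CPM in RPE-like cells against 6.42 and 4.57. The humdG intervals there, 6.54 to 14.9 and 1.49 to 10.7, overlapped. Id4 is treated as too close to background to be read. Bmp4 in red blood cell-like cells was at 13.2 and 6.35 without globin, and Bmp7 at 19.3 and 4.23, far below the RPE-like levels. Smad6 was at 15.8 and 8.47 there against 28.2 and 33.0 in RPE-like cells. Smad7 was at 15.8 and 16.9 against 33.2 and 37.9. The part of free RNA in the Smad6 and Smad7 ratios was not tested.

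Other measures moved between the libraries within the RPE-like cells. The summed level of the 8 retinal progenitor markers, a class with high Id1, was 816 CPM in humWT and 1227 in humdG, with all 8 detected in each, against 4529 and 5214 in retinal progenitor-like cells. The 8 blood vessel markers, of the class with the highest Id1 and Id3, summed to 309.8 and 178 CPM, all 8 detected in each library, against 6313 and 6997 in blood vessel-like cells. The 11 mesenchyme markers summed to 3004 and 1335, the 8 cartilage markers to 443 and 197, and the 9 muscle markers to 674 and 215 (Pax7 at 0 in humdG). Of 20 immediate-early and heat shock genes, which respond to dissociation, 12 had at least 20 UMIs, 1 was at least 1.5-fold higher and 2 were lower, with a median log2 ratio of -0.11. Mitochondrial UMIs made up 4.95% and 4.57%, histone transcripts 0.19% and 0.48%, and globins 5708 and 7288 CPM. The part of these in the ID differences was not tested, except that a total without mitochondrial, ribosomal, globin and histone genes and Cdk8 left the Id1 and Id3 ratios at 2.07 and 1.77.

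The levels across the eye differed by gene. Id1 and Id3 were highest in blood vessel-like cells, at 407 (393 to 421) and 543 (518 to 568) CPM in humWT and humdG for Id1 and at 774 (755 to 794) and 952 (919 to 985) for Id3. Within that class the cluster led by Flt1 had Id3 at 869 and 1087 CPM, against 278 and 309 in the cluster led by Cd93. When the cells were clustered at a resolution of 1.0, the highest Id3 in humdG was that of pericyte-like cells, at 1209.6 CPM. Retinal progenitor-like cells came next for Id1, at 302 (289.9 to 314) and 403 (392 to 414). RPE-like cells lay far lower in Id1 in humWT, near mesenchyme-like cells at 46.1 CPM, and in humdG stood at 178, with an interval overlapping those of surface epithelium-like cells at 205 and neurogenic-like cells at 163. For Id3, 3 of the 19 populations lay above the RPE-like class in humdG, which was at 557 CPM with an interval overlapping that of the next one up, cluster 1 (led by Tafa1, Cntn6 and Cp), at 565. The lowest Id1 levels in humWT were 20.05 in cluster 19 (led by Tnmd, C1qtnf3 and Scx) and 20.4 in melanocyte-like cells, which did not differ beyond their intervals.

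Id2 was highest in the pigment cells. Melanocyte-like cells held 304 (279 to 331) CPM in humWT and 372 (334 to 414) in humdG, and RPE-like cells were second in each library. In humdG the pair could not be separated, with 372 and 368 CPM and overlapping intervals, whereas in humWT they stood apart at 304 and 175. Retinal progenitor-like cells followed, at 137 and 165. Id4 was low in all 19 populations, with 33.6 and 33.1 CPM in retinal progenitor-like cells and none above 35.7, the level of humdG cartilage-like cells; when clustered without these and the other pathway genes, retinal progenitor-like cells were the highest in humdG, at 33.4. All 18 neighbouring levels of Id4 in humWT, and 16 of 18 in humdG, had overlapping intervals. A class of 50 humWT and 40 humdG neural crest and glia-like cells was too small to compare, and held Id3 at 719 and 682, Id4 at 68.7 and 40.5 and Id1 at 121 and 224 CPM.

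The 3 ligands shared their highest class, the RPE-like cells, in both libraries. Bmp4 was at 82.1 and 59.5 CPM in mesenchyme-like cells, the second class, and at 66.9 and 30.3 in cluster 19. Bmp7 was second in mesenchyme-like cells too, at 64.3 and 41.8. Bmp2 at 29.8 and 21.4 in RPE-like cells was followed by white blood cell-like cells at 18.8 in humWT and by cartilage-like cells at 19.3 in humdG, and only the humWT pair had separate intervals. Smad6 and Smad7 were highest in blood vessel-like cells, at 51.2 and 77.7 for Smad6 and 228 and 311 for Smad7. For Smad7 the second populations were at 44.8 and 60.9, so that vessel cells stood well apart.

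**Figure D3:**
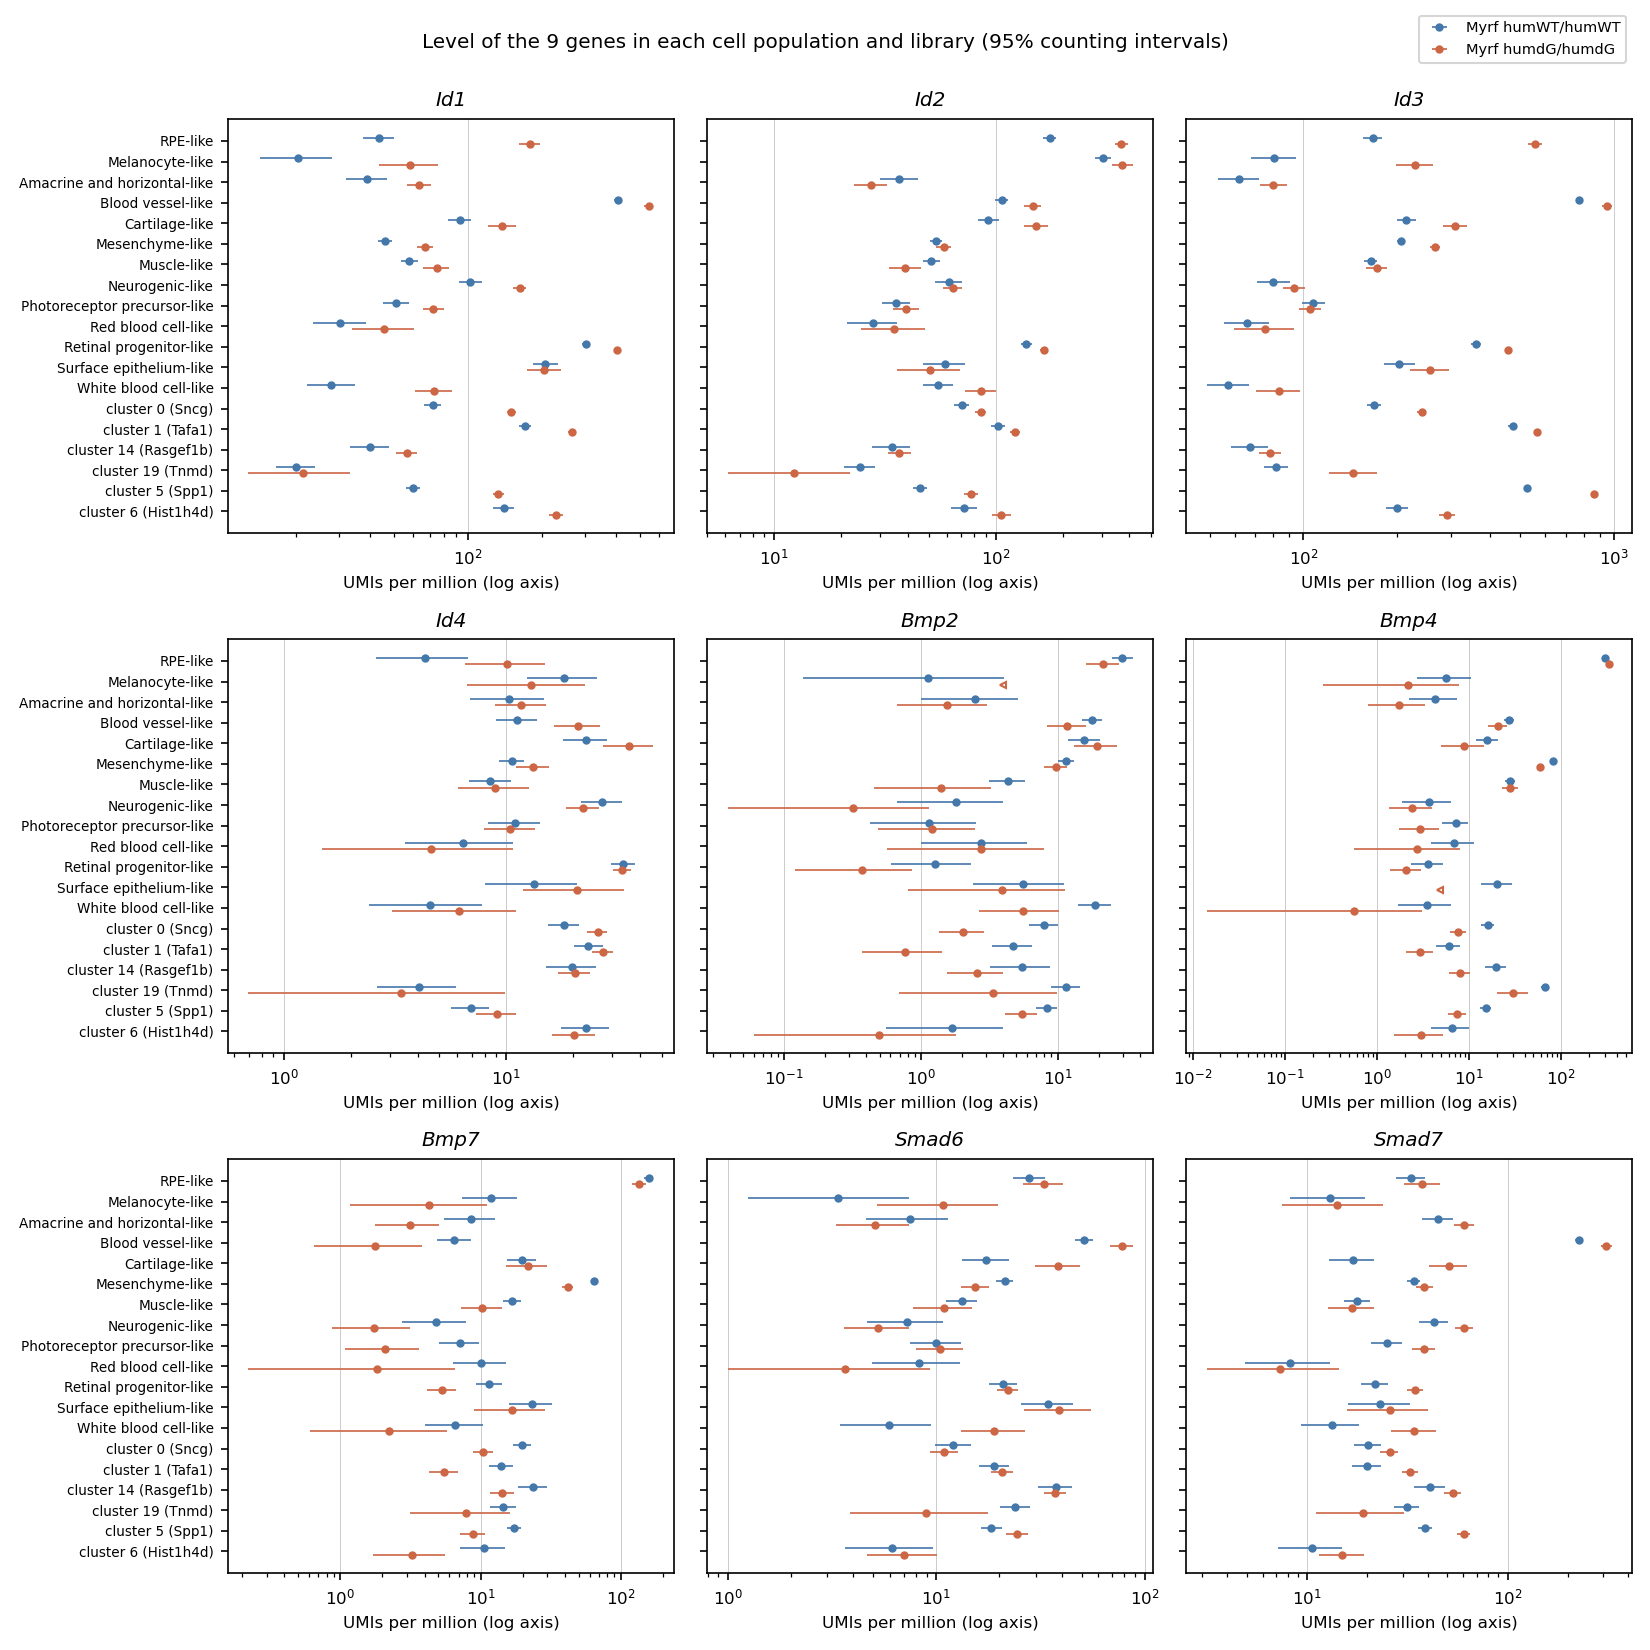
Level of each gene (CPM, log axis) in the 13 named classes and 6 unnamed clusters (rows) in the humWT (blue) and humdG (orange) libraries, with exact Poisson 95% intervals; an open triangle marks the upper bound of a population with no UMI. Id1, Id3, Smad6 and Smad7 peak in blood vessel-like cells, Id2 in melanocyte-like and RPE-like cells, and Bmp2, Bmp4 and Bmp7 in RPE-like cells; at a clustering resolution of 1.0 the highest Id3 in humdG was in pericyte-like cells.

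The Id1 and Id3 ratios were above 0 in most other cells as well, by less. Several of those classes lay below red blood cell-like cells taken without globin. Over the 12 other named classes, the Id1 ratio was above 0 in 11, with an interval wholly above 0 in those 11, and it was at least 1.5-fold in 5. It ran from -0.01 in surface epithelium-like to 1.52 (0.88 to 2.17) in melanocyte-like cells. The Id1 intervals of 10 classes lay wholly below that of RPE-like cells, and those of melanocyte-like cells and of white blood cell-like cells, at 1.38 (0.97 to 1.80) in the latter, overlapped it. In melanocyte-like cells Id1 was at 20.4 and 58.3 CPM and in white blood cell-like cells at 27.9 and 72.7, below the 58.0 and 106 of red blood cell-like cells without globin. On the plain total red blood cell-like cells stood at 30.3 and 45.7, above both classes in humWT and below both in humdG. The Id1 of amacrine and horizontal-like, mesenchyme-like and photoreceptor precursor-like cells also lay below the level without globin in each library, and that level itself was higher in humdG. The part of free RNA in these Id1 ratios was not tested. Id3 was above 0 in 11 of 12 classes, red blood cell-like cells among the 12, with an interval wholly above 0 in 9. Red blood cell-like cells without globin, at 126 and 174 CPM, lay above neurogenic-like and white blood cell-like cells in each library. They also lay above amacrine and horizontal-like and photoreceptor precursor-like cells. On the plain total they stood at 65.6 and 75.0, and the part of free RNA was not tested. The Id3 ratio was at least 1.5-fold in melanocyte-like cells alone. There it gave 142 and 212 UMIs, at 80.3 and 229 CPM, a log2 ratio of 1.51 (1.20 to 1.83), against 126 and 174 in red blood cell-like cells without globin, and every other class lay wholly below the RPE-like interval. Both pigment classes therefore had the largest Id3 ratios, though the melanocyte-like value turned to -1.84 when a scaled whole-library profile was subtracted as background. Over all kept cells, Id1 was at 105 and 182 CPM and Id3 at 279.9 and 364.

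Id2 was at least 1.5-fold higher in 2 of the 12 other classes, those of cartilage and of white blood cells. In melanocyte-like cells, where its level was highest, its log2 ratio was 0.29 (0.09 to 0.49), wholly below the 0.94 that bounds the RPE-like ratio from below. The Id2 ratio was below 0 in amacrine and horizontal-like (-0.42, -0.80 to -0.04) and muscle-like cells (-0.39, -0.67 to -0.12). Their levels, 36.6 and 27.3 CPM in the former and 51.2 and 39.0 in the latter, were low. Red blood cell-like cells stood higher without globin, at 53.6 and 80.4. On the plain total, at 28.0 and 34.8, they lay below muscle-like cells in both libraries. The part of free RNA in these Id2 ratios was not tested. Within the muscle-like class the cluster led by Myog, of young muscle cells, had lower Id3 in humdG, at 229 and 163 CPM, a log2 ratio of -0.49 (-0.67 to -0.32), while the cluster led by Ttn had 109 and 188.

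Bmp7 was lower in humdG in most classes outside the RPE, with intervals wholly below 0 in 8 of 12, and Bmp4 was above 0 in none of the 11 classes with a ratio. Surface epithelium-like cells gave 29 UMIs of Bmp4 in humWT and 0 in humdG, with an upper bound of 4.79 CPM in humdG. The levels concerned were low. Bmp7 in retinal progenitor-like cells gave 91 and 71 UMIs at 11.6 and 5.28 CPM, and in photoreceptor precursor-like cells 37 and 12 UMIs at 7.13 and 2.09. Red blood cell-like cells showed the same, with 10.1 and 1.83 CPM, and RPE-like cells, where Bmp7 was highest, made up 3.56% of humWT and 2.23% of humdG cells. The part of free RNA in these ratios was not tested. Mesenchyme-like cells, with levels far above it, held Bmp4 at 82.1 and 59.5 CPM (log2 ratio -0.46, -0.60 to -0.33) and Bmp7 at 64.3 and 41.8 (-0.62, -0.78 to -0.46).

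Counts of the 9 genes by class were as follows, each beside the share of all counted genes in that class. In melanocyte-like cells 2 of the 6 counted were higher and 1 lower, against 9.92% and 11.2% of genes. In blood vessel-like cells 2 of 9 were higher (Id4 and Smad6) and 2 lower (Bmp2 and Bmp7), against 6.05% and 10.6%. In mesenchyme-like cells none of 9 was higher and 1 lower, against 5.94% and 7.81%, and in muscle-like cells none of 9 was higher and 2 lower, against 10.0% and 10.1%. In cartilage-like cells 4 of 9 were higher and 1 lower, but there 47.5% of all genes were higher and 5.92% lower, with a median log2 ratio of 0.55 over genes, so the class as a whole was shifted. In retinal progenitor-like cells 1 of 8 was higher (Smad7) and 2 lower, against 5.22% and 8.53%. In neurogenic-like cells 1 of 8 was higher (Id1) and 2 lower, against 5.44% and 10.1%. In photoreceptor precursor-like cells 1 of 8 was higher (Smad7) and 2 lower, against 6.22% and 10.8%, and in amacrine and horizontal-like cells 1 of 8 was higher (Id1) and 2 lower, against 8.20% and 12.7%. In red blood cell-like cells 1 of 6 was higher (Id1) and 2 lower, against 14.9% and 26.8%. In surface epithelium-like cells 1 of 8 was higher (Id4) and 1 lower, against 7.88% and 14.4%. In white blood cell-like cells 4 of 8 were higher (Id1, Id2, Smad6 and Smad7) and 2 lower, against 10.5% and 11.6%.

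In the unnamed clusters, Id1 was higher in humdG in cluster 0 (led by Sncg, of low depth), at 72.2 and 150.1 CPM, with a log2 ratio of 1.06 (0.93 to 1.19). Cluster 5, led by Spp1, Mgp and Rgs5, had Id3 at 524 and 866 CPM, second to the blood vessel-like class in each library, with a log2 ratio of 0.72 (0.68 to 0.77), and Id1 at 59.8 and 133, a ratio of 1.15 (1.03 to 1.28). Cluster 1 had Id1 at 171 and 265 and Id3 at 473 and 565. In all 6 unnamed clusters the intervals of the Id1 and Id3 ratios lay wholly below those of RPE-like cells.

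A list of 71 genes, including the 9, was grouped by role. It held genes of the BMP and TGF-β pathways and 3 E proteins. In RPE-like cells 56 had at least 20 UMIs. Of the 47 that are not among the 9, 1 was at least 1.5-fold higher, 2.13% against 7.16% of all genes, and 15 were lower, 31.9% against 15.4%. Their median log2 ratio was -0.43 beside -0.06 over all counted genes. The list was drawn up with earlier results of these data known. It holds Wfikkn2 and Tcf4, which the study names as lower, and Id1 and Id3, which the study names as higher. Several of the lower genes rest on few UMIs, and the share over all genes was not matched for level. Nothing is read from these shares. The gene that was higher was Atoh8, a transcription factor and BMP target, with only 12 and 19 UMIs and a log2 ratio of 1.49 (0.37 to 2.67). Of the 6 counted target genes, the 4 ID genes and Atoh8 passed 1.5-fold upward, and Hey1 was lower at 16 and 4 UMIs. The ID genes had been picked for it, and Id4 was no higher than free RNA on a total without globin. Smad6 and Smad7, also BMP targets, were grouped as inhibitors and did not pass 1.5-fold.

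Among the receptors, none of 10 was higher and 2 were lower, against 7.16% and 15.4% of all genes in these cells. Bmpr2, the type II receptor with the highest level, was at 96.7 and 90.2 CPM, a log2 ratio of -0.10 (-0.34 to 0.14). Acvrl1 and Eng, receptors of vessel cells, were the 2 that were lower, at 23 and 4 and at 47 and 12 UMIs, and the summed blood vessel markers were lower in humdG as well (above), a link that was not tested. Acvr2b, a type II receptor, went the other way, at 52.3 and 72.4 CPM, a ratio of 0.47 (0.18 to 0.76). None of the counted signal SMADs passed 1.5-fold. Smad4, the shared partner, was at 61.5 and 55.4 CPM, a log2 ratio of -0.15 (-0.46 to 0.15), and Smad5 gave -0.06 (-0.45 to 0.33). Smad1 gave -0.43 (-0.94 to 0.05), a lower value whose interval reached past 0. Smad9 had too few UMIs to be counted, 7 and 12, and gave 1.61 (0.14 to 3.19). Of the other ligands, Bmp3, Bmp5 and Gdf10 were lower, at 28 and 2, 24 and 1, and 22 and 6 UMIs, and Bmp6 was at 101 and 104 CPM, a ratio of 0.03 (-0.20 to 0.26).

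Of the 10 counted extracellular antagonists, none was higher and 4 were lower, against 7.16% and 15.4% of all genes. Nothing is read from these counts. Sostdc1, which binds BMPs outside the cell, had the highest level over both libraries and stood at 483 and 722 CPM. Its log2 ratio of 0.58 (0.49 to 0.67) was just under the 1.5-fold cut, with an interval wholly above 0. Nog, the gene of Noggin, was lower, with 592 and 188 UMIs at 135 and 76.0 CPM, a log2 ratio of -0.83 (-1.07 to -0.59). Crim1, which tethers BMPs at the membrane, was at 497 and 348, a ratio of -0.51 (-0.63 to -0.40). Bmper and Nbl1 had the lowest ratios of the pathway genes whose UMIs summed to 50 or more, at -3.04 (-4.70 to -1.75) from 73 and 5 UMIs and -2.10 (-3.21 to -1.14) from 76 and 10 UMIs. Bmper was also a leading gene of the cartilage-like cluster, and the summed cartilage and mesenchyme markers were lower in humdG RPE-like cells as given above, and their part in these ratios was not tested. Of the 7 intracellular and membrane inhibitors, none passed 1.5-fold in either direction, and Skil, with the highest level, was at 88.3 and 90.6 CPM.

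In the TGF-β branch, none of 9 was higher and 4 were lower, against 7.16% and 15.4% of all genes in RPE-like cells. Wfikkn2, a secreted inhibitor of TGF-β family ligands, was the lowest of those genes after Bmper and Nbl1, with 1575 and 347 UMIs at 358 and 140.3 CPM, a log2 ratio of -1.35 (-1.52 to -1.18). Tgfbr2, Smad3 and Ltbp1 gave -0.73, -0.61 and -0.67. Of the E proteins that ID proteins bind, Tcf4 was lower, with 1170 and 324 UMIs at 266 and 131 CPM, a log2 ratio of -1.02 (-1.21 to -0.84), Tcf12 gave -0.44 (-0.62 to -0.25) and Tcf3 0.18 (-0.22 to 0.57).

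**Figure D4:**
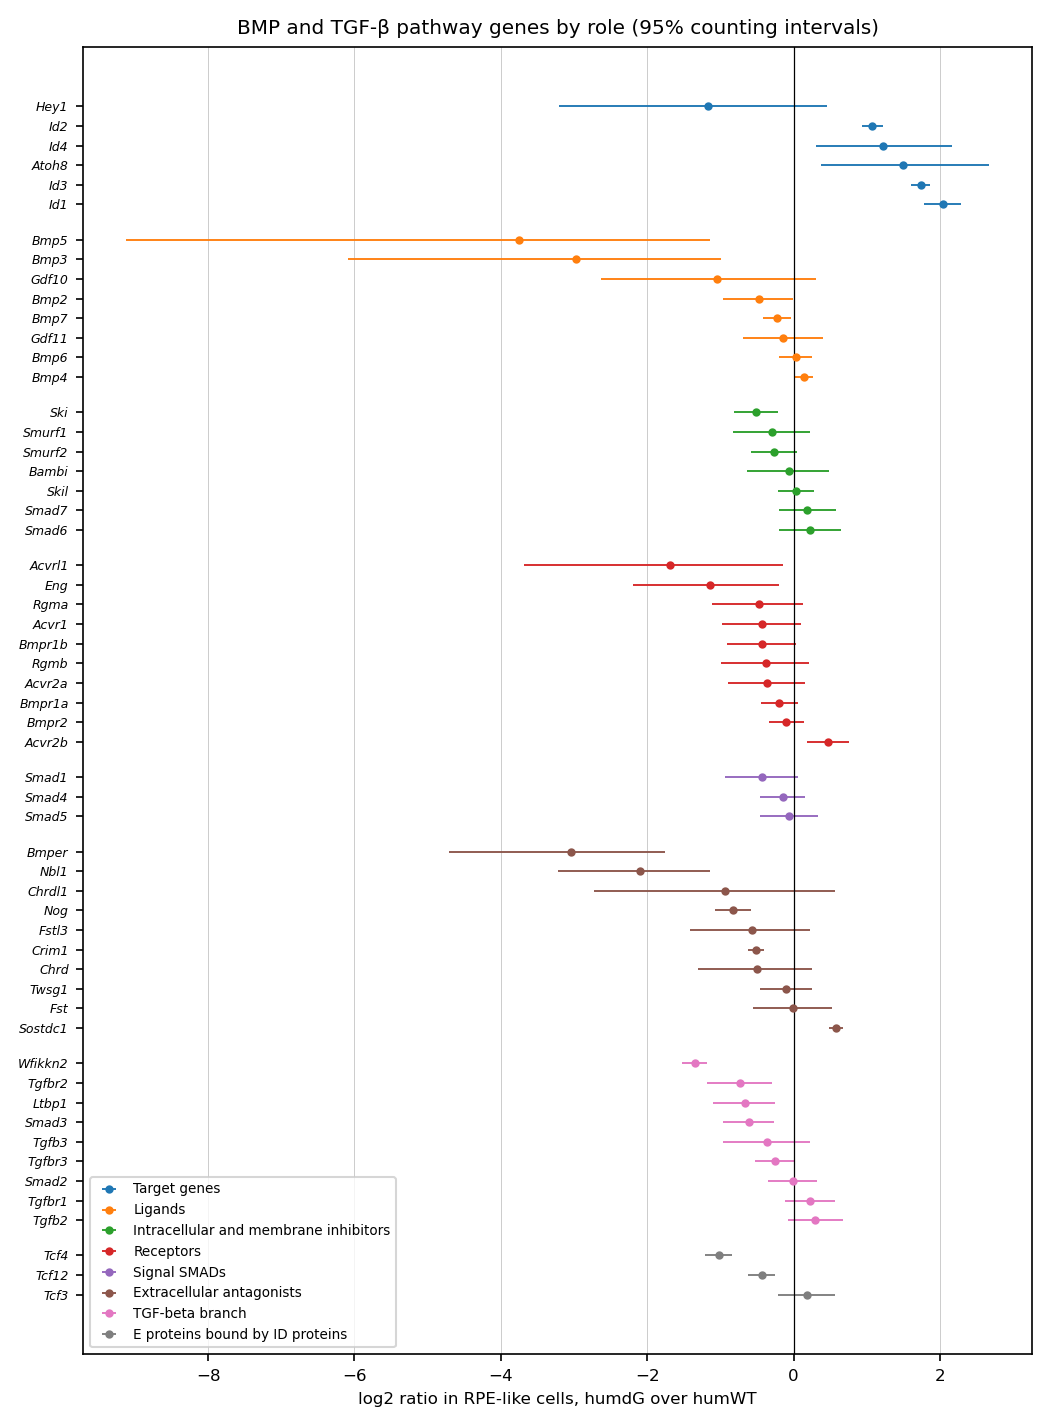
Log2 ratio of humdG over humWT in RPE-like cells for the 56 pathway genes with at least 20 UMIs, grouped by role, with 95% counting intervals. Apart from Hey1, the genes grouped as targets lie to the right of 0, from 1.08 for Id2 to 2.04 for Id1. The 4 ID genes were picked for this difference, and Atoh8 rests on 12 and 19 UMIs. Smad6 and Smad7, also BMP targets, are grouped as inhibitors and lie at 0.23 and 0.19. The counted signal SMADs and most receptors and antagonists lie to the left of 0, with Bmper at -3.04 and Sostdc1 at 0.58.

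Genes with the most similar profiles over the 38 sums (19 populations in 2 libraries) were ranked by Pearson's r of log2 levels, as a description over populations that share libraries and depth. Id1 was most like Nrarp (r = 0.88), Hes1 (0.81) and Atoh8 (0.76), and Id3 most like Prss23 (0.81), Hes1 (0.78) and Atoh8 (0.75). Id2 was most like Pxmp2 (0.84), Dbi (0.82) and Hddc2 (0.78), and Id4 like Nup205 (0.81), Eftud2 (0.80) and Cep72 (0.80). Bmp4 was most like Gm15222 (0.94), Me1 (0.89) and 2810433D01Rik (0.88), and Bmp7 most like Slc7a10 (0.93), Azin2 (0.92) and Wfikkn2 (0.91). Bmp2 was most like Nid2 (0.88), Pparg (0.85) and Nek6 (0.83). For Smad6, 2900026A02Rik (0.84) and Shroom4 (0.84) were among the most similar, and Smad7 was most like Ttc39c (0.86), Shank3 (0.83) and Tspan18 (0.83). Among the 9 genes, r was 0.85 for Bmp4 and Bmp7, 0.75 for Id1 and Id3 and 0.64 for Smad6 and Smad7.

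The Id1 and Id3 ratios in RPE-like cells stayed above 0 under every alternative tried that gave a value. They were lowest, at 0.89 for each, in cells chosen by 5 of 7 pigment markers rather than by cluster. That choice took 450 humWT and 227 humdG cells, of which 61.8% and 78.9% lay in the RPE-like clusters. Of the rest, 48 humWT and no humdG cells came from cluster 19, and 34 and 22 from cluster 14. The cluster 14 cells had medians of 23646 and 81704 UMIs, and the cluster 19 cells a median of 29124.5. Chosen cells in the RPE-like clusters had medians of 7372.5 and 5622. The weight of the deep cells in these summed ratios was not tested. Within the RPE-like clusters alone, cells passing the same markers gave 2.15 (1.86 to 2.44) for Id1 and 1.72 (1.58 to 1.87) for Id3. Cells were also split by sex-linked UMIs, and cells with neither or both kinds were left out. The 78 and 82 cells with Xist but without any Y-linked UMI gave 2.64 (2.01 to 3.31) and 1.81 (1.52 to 2.10). The 171 and 86 cells with Y-linked UMIs but without Xist gave 1.97 (1.55 to 2.41) and 2.13 (1.91 to 2.35). Both subsets come from the same 2 pooled libraries and are not separate evidence.

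**Figure D5:**
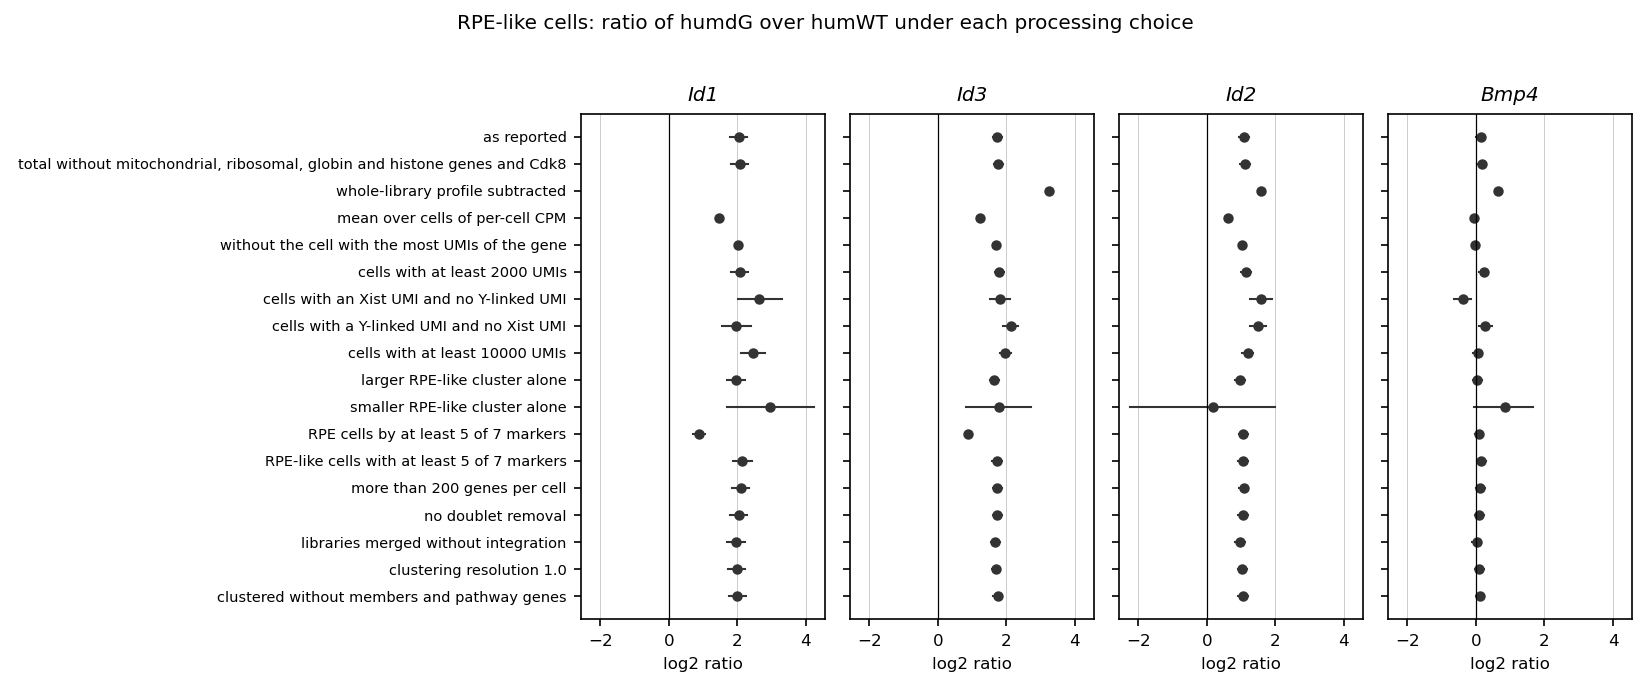
Log2 ratio of humdG over humWT in RPE-like cells for Id1, Id3, Id2 and Bmp4 as reported and under each processing choice (rows), with 95% counting intervals where the choice gives counts; Id1 has no value with the profile subtracted. Id1 and Id3 run from 0.89 to 2.95 and from 0.89 to 3.25 and stay above 0, Id2 stays above 0, and Bmp4 lies on either side of 0.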

How the data were processed

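Whole eye cups were dissociated and sequenced as 3' single-cell libraries, 1 pool for each genotype. The authors deposited UMI counts per gene and barcode, made with Cell Ranger 7.1.0 against mm10, per the submitters' processing notes, which also name Seurat 4.1.1. The study's final cell numbers are smaller than the barcodes in the tables. The humWT table held 17421 barcodes and 129135207 UMIs (median 3758 per barcode) while the humdG counts covered 19565 barcodes and 114319529 UMIs (median 2572), and 102 barcodes occurred in both.

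The filter kept barcodes that had over 500 genes and less than 15% of UMIs from mitochondria. Scrublet (scanpy 1.11.5) called 1 and 0 doublets on its own, so the 5% of barcodes with the highest scores were removed from each library. Integration used canonical correlation (20 dimensions), and cells were clustered on the first 20 of 30 components at resolution 0.5 (Seurat 5.3.0, R 4.3.3). A cluster was named where at least 3 markers of a type were raised. A tied cluster was named only by markers among its 10 leading genes, a rule set after the clusters were seen. The larger RPE-like cluster was tied with melanocytes and named in this way. UMIs were summed per class and library (python 3.11.15, scipy 1.17.1), with exact Poisson, conditional binomial and Clopper-Pearson 95% intervals, which cover counting error only. The scripts were tested on simulated counts. With 1 library for each genotype no test was run.

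The genes and lists were chosen with earlier results of these data known. Pathway genes named were the 3 at each end of the ratios, where a gene had 50 UMIs or more, and the top gene of each role; the other pathway genes named were chosen after their values were seen. Similar genes were the 3 with the highest correlation of log2(CPM + 10) for each gene, of which 1 is not reported here. Alternatives changed the gene filter, doublet removal, integration, resolution, clustering genes, choice of RPE cells, scaling, cell weights, leading cells, free RNA, depth and sex. Both RPE-like clusters taken singly, cells with at least 10000 UMIs, and RPE-like cells with 5 of 7 markers were added after seeing the data. Promoters and gene positions came from RefSeq (GRCm38.p6) and GENCODE M21.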

Additional observations from a re-analysis of the deposited data

Results flagged for a closer look

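In 5 cases among named classes with UMIs in both libraries, the interval of the log2 ratio of humdG over humWT lay wholly across 0 from that of RPE-like cells. Bmp4 in surface epithelium-like cells, with 29 and 0 UMIs, had an interval wholly below 0 but no ratio. The difference between the classes was not tested. Id2 was at -0.42 (-0.80 to -0.04) in amacrine and horizontal-like cells and at -0.39 (-0.67 to -0.12) in muscle-like cells, against 1.08 in RPE-like cells. The Id2 levels of both classes lay below the 53.6 and 80.4 CPM of red blood cell-like cells without globin. Bmp4 was at -0.42 (-0.83 to -0.02) in blood vessel-like cells, at -0.46 (-0.60 to -0.33) in mesenchyme-like cells and at -1.27 (-2.19 to -0.41) in photoreceptor precursor-like cells, against 0.14 in RPE-like cells. The Bmp4 ratio of RPE-like cells (0.01 to 0.27) fell below 0 without the leading cell of each library (above), so its side of 0 is not settled. In photoreceptor precursor-like cells Bmp4 stood at 7.13 and 2.96 CPM, below the 13.2 and 6.35 of red blood cell-like cells without globin. The part of free RNA in these ratios was not tested.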

How the results depend on the processing

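In RPE-like cells the ratios of Id1, Id2, Id3 and Id4 were above 0 under each of the 16 or 17 alternatives that gave a value. Id1 moved from 2.04 to 1.46 as a mean over cells, 2.64 in cells with an Xist UMI alone, 2.46 in cells with at least 10000 UMIs, 2.95 in the smaller RPE-like cluster and 0.89 in cells taken by 5 of 7 markers. Id3 moved from 1.74 to 3.25 with the whole-library profile subtracted, 1.23 as a mean over cells, 2.13 in cells with a Y-linked UMI alone, 1.97 in cells with at least 10000 UMIs and 0.89 in cells taken by markers. Id2 moved from 1.08 to 1.58 with the profile subtracted, 0.60 as a mean over cells, 1.57 and 1.495 in cells of each sex and 0.19 in the smaller cluster. The cause was not tested. Profile subtraction removed 42.5% and 62.5% of the RPE-like UMIs and left no Id1 in humWT, so it gave no value there. Bmp2, Bmp4, Bmp7, Smad6 and Smad7 took either sign, though not evenly. Of 17 alternatives, the ratio was above 0 in 2 for Bmp2, 2 for Bmp7, 14 for Bmp4, 14 for Smad7 and 16 for Smad6. Of 370 values in the other classes, 331 moved by less than their counting interval, 36 moved further and 3 that had passed 1.5-fold changed sign: Id3 in melanocyte-like cells (-1.84) and Bmp7 in muscle-like cells (0.090) with the profile subtracted, and Bmp7 in photoreceptor precursor-like cells (0.14) without integration. No paired analysis was possible because each genotype had 1 library. Depth limits Id4 most, then Bmp2, Smad6 and Smad7, and no alternative replaces a second library.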
